A study of Rattus norvegicus with 48 samples.

Results

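The genes described here are the phase II conjugation enzymes of the rat kidney that an exon array measured, which are 32 of the 7997 genes tested. They were taken by symbol, as every gene whose platform symbol names a glutathione S-transferase (GST), a microsomal GST, a UDP-glucuronosyltransferase (UGT), a cytosolic sulfotransferase (SULT) or an epoxide hydrolase, apart from Gsta2 and Ugt1a6. The members rest on 247 of the 85406 probe sets that carry 1 gene symbol. They comprise 12 cytosolic GSTs (6 of the mu, 2 of the theta, 2 of the omega, 1 of the pi and 1 of the kappa class), 1 microsomal GST, 10 UGTs, 7 SULTs and 2 epoxide hydrolases.

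Phase II enzymes attach a polar group to a drug, a pollutant, a hormone or a product of oxidation, so that the conjugate can leave the cell and be excreted in urine or bile. GSTs add glutathione to electrophiles, UGTs add glucuronic acid from UDP-glucuronic acid, SULTs add sulfate from the cofactor PAPS, and epoxide hydrolases open reactive epoxides with water. In the kidney many of these enzymes sit in the proximal tubule, and ligands of the aryl hydrocarbon receptor, such as the acid products of indole-3-carbinol, and activators of the factor NRF2 are known to raise several of them.

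Total RNA from the kidneys of male rats was hybridised to 48 arrays, 4 in each of 12 groups made of the strains FL, LF, F and L and of days 0, 7 and 10. The day 7 and day 10 groups of each strain had received indole-3-carbinol at 100 mg per kg body weight a day by gastric gavage for 7 or 10 days, and the day 0 groups had received the vegetable oil carrier by gavage. The rats were 12 to 14 weeks old, with 8 rats in a group per the labels, which do not spell out the strain names. With no carrier group at day 7 or day 10, the compound, the days of gavage and the day of collection cannot be told apart. The sources used here do not tell whether rats were pooled on an array, and the p-values therefore reflect how arrays of a group vary, part of which may be technical. From knowledge outside the labels, rats of this study carry a renin transgene under the Cyp1a1 promoter, which indole-3-carbinol switches on and which raises blood pressure.

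Values are log2 intensities, and a gene value summarises its probe sets. The array medians over all probe sets lay between 6.03, in an FL array at day 10, and 6.61, in an LF array at day 0. Over all genes the median log2 difference was -0.03 at day 7 against day 0, -0.04 in FL against L and -0.03 in FL against LF. Whether small differences follow this shift was not tested, although quantile normalization was run as an alternative. All 6 proximal tubule markers were measured and averaged between 11.2 and 11.4 in every group, while 2 of 3 hepatocyte markers were measured and averaged between 3.33 and 3.57. Differences were tested with limma, fitted to all 7997 genes with Benjamini-Hochberg adjustment, and a gene passed where its adjusted p was under 0.05. In whole kidney, fewer cells of a type and less RNA in each cell cannot be told apart.

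The strongest signals among the members came from Sult1c2a (a SULT1C sulfotransferase) at a mean log2 level of 11.38 over the 48 arrays, Ugt1a1 (the enzyme that conjugates bilirubin) at 10.79 and Ephx1 (microsomal epoxide hydrolase) at 10.67. The weakest came from Ugt2a1 at 2.26, Sult2a1 at 2.20 and Sult2a2 at 1.90. Array signal depends on the probes, so this order is one of brightness and not of transcript amount between genes. A total of 12 members lay among the dimmest genes, those in the lowest tertile of mean level over all genes tested. Ugt1a1 and Ugt1a7c rested on 1 probe set each, Ugt1a5 and Ugt1a9 on 2, and the other 28 on 4 to 19. The mu class GSTs, the UGT1A and UGT2B genes and the SULT1C genes are families of close copies, so their values may hold signal of a neighbour in the family and are uncertain to that extent.

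**Figure D1:**
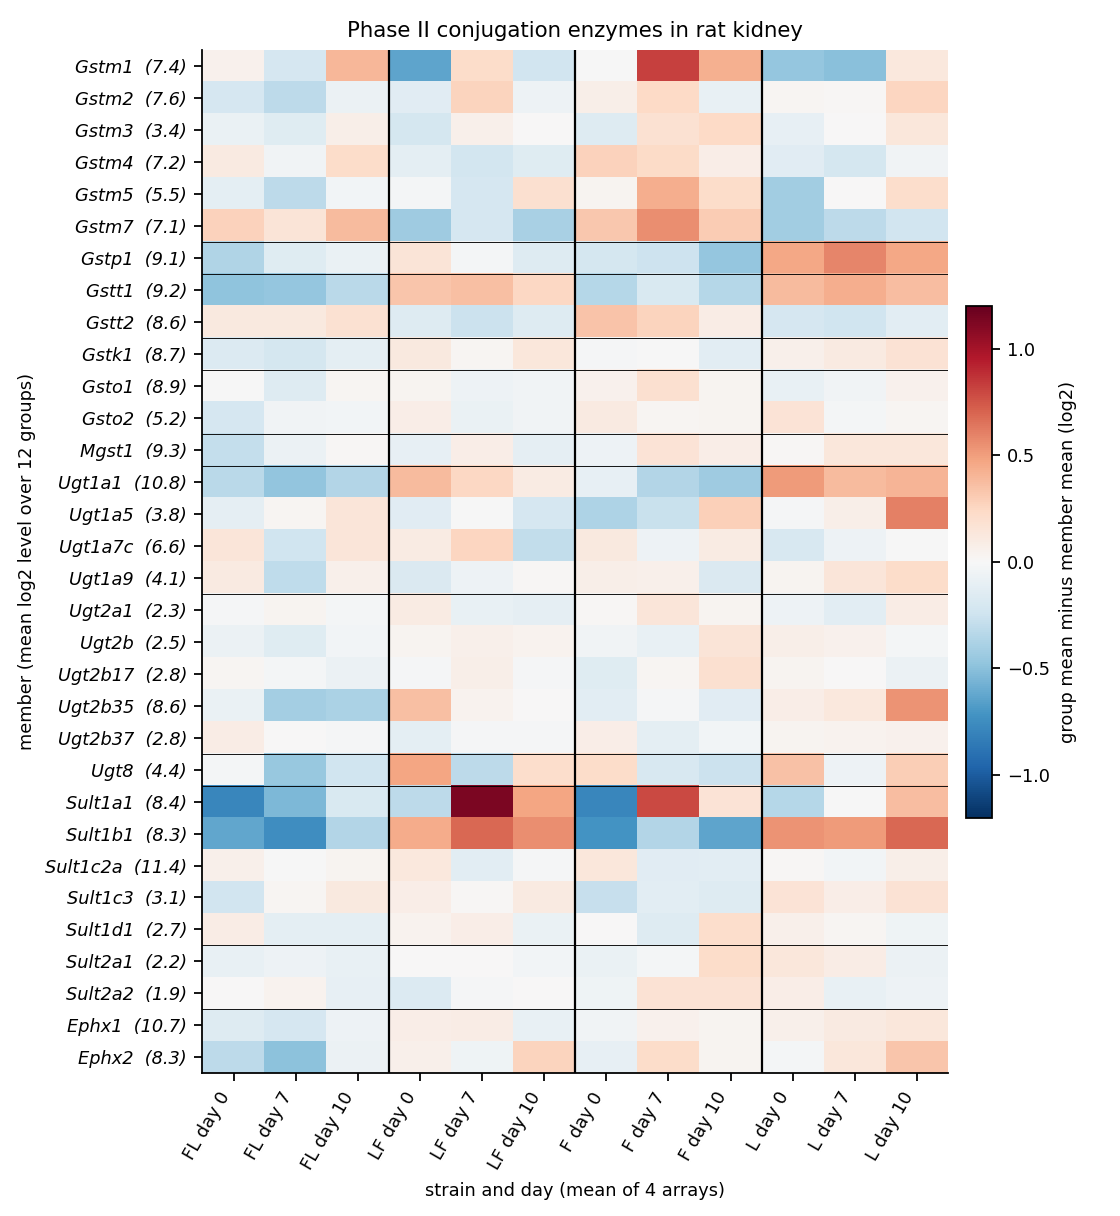
Each row is 1 of the 32 phase II genes and each column 1 of the 12 strain-by-day groups of 4 arrays. Colour gives the group's mean log2 value minus the gene's mean over all groups. The widest span between group means belonged to Sult1a1 (1.91), ahead of Gstm1 (1.45), Sult1b1 (1.44) and Gstp1 (1.05), and the Gstt1, Sult1b1 and Ugt1a1 rows split by strain at every day.

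The first question of the design is what changed after indole-3-carbinol. As a mean of the 4 strains, Sult1a1, the sulfotransferase of simple phenols, was the member that rose at day 7, and Ugt8, the ceramide galactosyltransferase that makes the galactolipids of myelin and of kidney membranes, was the member that fell. These 2 of 32 members (6.25%) stand beside 4.98% of all genes past the test at day 7, of which 1.10% were higher and 3.88% lower. The other 30 members, which include all the GSTs and both epoxide hydrolases, did not pass. The median log2 difference was 0.02 over the members and -0.03 over all genes.

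Sult1a1 had a log2 value of 8.62, 7.91, 7.61 and 7.25 in the 4 FL arrays at day 7, against 7.97, 7.52, 7.69 and 7.26 in the FL arrays at day 0. LF arrays gave 10.05, 10.6, 9.23 and 8.22 at day 7, against 8.10, 7.98, 8.28 and 7.97 at day 0. In LF, 3 of the 4 arrays at day 7 lay well above every array at day 0, and the fourth lay within that range, whereas in FL the days overlapped. F arrays gave 9.36, 9.20, 9.59 and 8.60 at day 7, against 7.20, 7.78, 7.76 and 7.71 at day 0. L arrays gave 8.29, 8.78, 8.61 and 7.87 at day 7, against 8.12, 7.81, 8.40 and 7.86 at day 0. The groups did not overlap in F and overlapped in L.

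Over the 16 arrays of each day, Sult1a1 averaged 8.74 at day 7 and 7.84 at day 0, a log2 difference of 0.90 ± 0.17 (SE), or 1.86-fold (limma adjusted p = 0.00105). All 11 of its probe sets were higher at day 7, by 0.60 to 1.02. At day 10 it averaged 8.60, against 7.84 at day 0, and rose by 0.76 ± 0.17 (SE), or 1.70-fold (limma adjusted p = 0.00749), again at 11 of 11 probe sets. Without the arrays numbered 2 the day 7 difference was 0.75 with a limma adjusted p of 0.0635, and the day 10 adjusted p was 0.0755 without those numbered 1 and 0.0552 without those numbered 3.

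The promoter of Sult1a1 is printed because this gene carries the change after the compound. It is the RefSeq sequence of the 250 bases before the gene's start on build GRCr8, chr1:190706113-190706362, minus strand, read 5′ to 3′. It was searched on both strands for GCGTG (the core bound by the aryl hydrocarbon receptor), TGACNNNGC (the core of the antioxidant response element) and GTTAAT (a site of the factor HNF1), and none of these letters occurred, so it has no capitals. Among 27457 rat promoter windows of the same length, 27.1% held GCGTG, 10.2% TGACNNNGC and 6.5% GTTAAT.
Sult1a1: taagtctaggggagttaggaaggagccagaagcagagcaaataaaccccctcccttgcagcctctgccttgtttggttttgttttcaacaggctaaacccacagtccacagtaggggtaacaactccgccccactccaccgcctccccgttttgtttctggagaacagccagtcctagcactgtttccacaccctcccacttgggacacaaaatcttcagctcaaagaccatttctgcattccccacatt

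Genes that mark exposure and injury differed over the same arrays. Cyp1a1, a P450 enzyme and the classic target of the aryl hydrocarbon receptor, was 1.21 higher on the log2 scale at day 7 than at day 0 and 1.55 higher at day 10, both past the test. Havcr1 (KIM-1), a marker of tubular injury, was 1.52 higher at day 7 and 2.49 higher at day 10, and Hmox1, the haem oxygenase that oxidative stress raises, was 1.67 and 1.88 higher. All 3 measured members of the tubular injury list passed as higher at both days. Of the 4 measured genes of exposure and oxidative stress, 3 passed as higher at each day and 1 did not pass. Among all genes 1.10% passed as higher at day 7 and 1.24% at day 10.

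The groups did not rank alike in these genes. Sult1a1 was highest in LF at day 7, at 9.52, and in F at day 7, at 9.19, while Cyp1a1 averaged 5.43 in LF and 6.95 in F at that day, against 4.94 in LF and 4.52 in F at day 0. Hmox1 reached 9.90, 8.85, 10.23 and 5.47 in the 4 LF arrays at day 7, and the array at 5.47 is also the one where Sult1a1 stood at 8.22. In F at day 10, however, the array with the lowest Hmox1, at 5.15, had the highest Sult1a1 of that group, at 9.40. The part of injury or oxidative stress in the Sult1a1 difference was not tested.

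**Figure D2:**
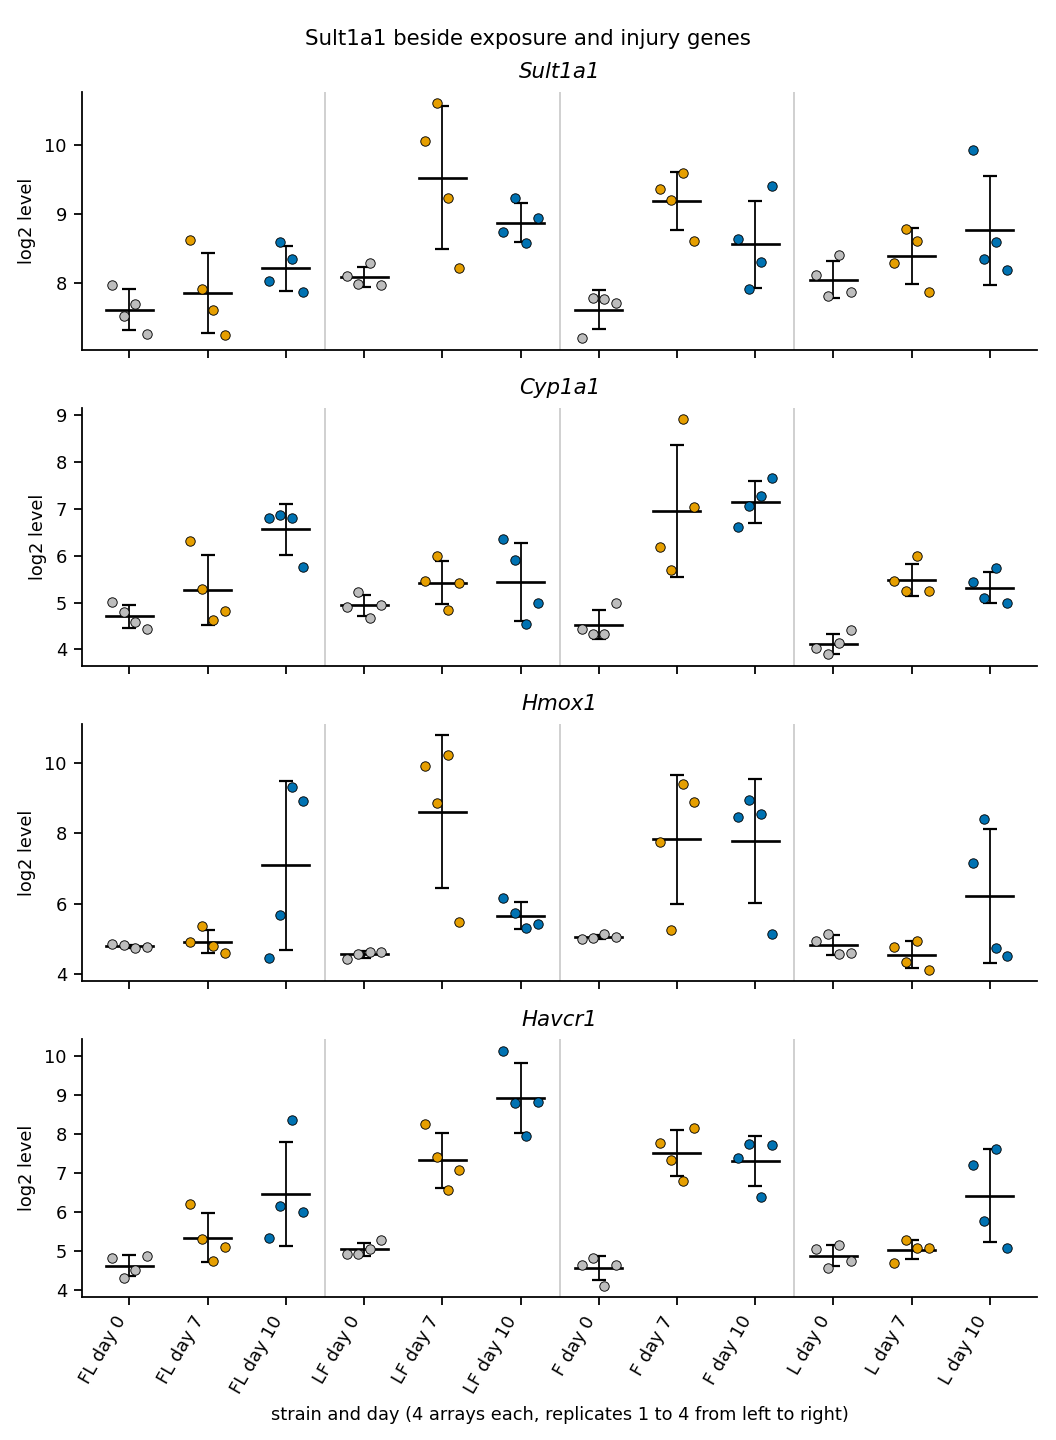
Log2 value of Sult1a1, Cyp1a1, Hmox1 and Havcr1 in each of the 48 arrays, by strain and day, with the mean and SD of 4 arrays. Sult1a1 stands highest in LF and F at day 7, at means of 9.52 and 9.19, and Hmox1 spreads from 5.47 to 10.23 within LF at day 7.

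Within single strains the change of Sult1a1 passed the test in F and LF at day 7. In F it averaged 9.19 at day 7 and 7.61 at day 0, a log2 difference of 1.57 ± 0.35 (SE), or 2.98-fold (limma adjusted p = 0.0112), and was the only one of 32 members to pass, beside 0.688% of all genes. In LF it averaged 9.52 at day 7 and 8.08 at day 0, a difference of 1.44 ± 0.35 (SE), or 2.71-fold (limma adjusted p = 0.0159), and with Ugt8 made 2 of 32 members, beside 2.44% of all genes. Each of these calls was lost when the arrays numbered 1, 2 or 3 were left out, with adjusted p up to 0.285 in F and 0.408 in LF. The LF call was lost in 7 of 57 alternatives. These include fitting LF on its own (limma adjusted p = 0.133) and leaving out the single array LF day 0 replicate 2. The F call was also lost without 1 single array, either F day 7 replicate 1, F day 7 replicate 3 or F day 0 replicate 1. The last of these is flagged below as far from its group.

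No member passed in the other within-strain comparisons. At day 7 the Sult1a1 difference was 0.24 in FL (0 of 32 members by limma, 2 at an unadjusted p under 0.05, beside 0.150% of all genes) and 0.34 in L (0 of 32, 0 unadjusted, beside 0.00%). At day 10 it was 0.60 in FL (0 of 32, 0 unadjusted, beside 0.0250%), 0.79 in LF (0 of 32, 1 unadjusted, beside 1.04%), 0.95 in F (0 of 32, 7 unadjusted, beside 0.375%) and 0.71 in L (0 of 32, 5 unadjusted, beside 0.00%). All 8 differences were above 0, with adjusted p of 0.326 to 1.0 for these 6. Sult1a1 had 8.03, 8.59, 8.35 and 7.87 in FL at day 10, 8.73, 9.23, 8.58 and 8.94 in LF, 8.63, 7.91, 8.30 and 9.40 in F, and 9.92, 8.35, 8.59 and 8.19 in L. Both the LF and the F arrays of day 10 lay wholly above the day 0 arrays of their strain, and those of FL and L overlapped with them.

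Whether strains differed in their response was tested as such. The F test over all strains passed for 0 of 32 members (limma, 3 at an unadjusted p under 0.05), beside 0.200% of all genes. The smallest limma adjusted p among the members was 0.609 for Gstm1, 0.709 for Sult1d1 and 0.727 for Sult1a1. In the 8 contrasts of response between strain pairs limma also passed 0 of 32 members each, with 0 to 3 at an unadjusted p under 0.05. All genes passed at 0.0625% (day 7) and 0.0125% (day 10) in FL against F, 0.0875% and 0.0375% in LF against L, 0.113% and 0.0250% in LF against F, and 0.00% at both days in F against L. The day 7 response of Sult1a1 was 1.24 ± 0.49 (SE) larger on the log2 scale in F than in L (limma adjusted p = 0.999), 1.10 ± 0.49 larger in LF than in L (adjusted p = 0.964) and 1.34 ± 0.49 smaller in FL than in F, written as a difference of -1.34 (adjusted p = 0.905). A larger response of Sult1a1 in F and LF than in FL and L was thus not shown. For Sult1b1 the 8 differences of response between strain pairs ran from -0.49 to 0.39, with none past the test.

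Ugt8 was dimmer than most members, with a mean of 4.17 at day 7 and 4.68 at day 0. It fell by 0.51 ± 0.11 (SE) on the log2 scale, or 1.43-fold (limma adjusted p = 0.00206), and 9 of 9 probe sets were lower at day 7, by 0.11 to 0.93. In LF the 4 arrays gave 4.44, 4.09, 3.95 and 3.98 at day 7, against 5.06, 5.30, 4.74 and 4.51 at day 0, with no overlap. In LF the log2 difference of -0.79 ± 0.21 (SE) passed (limma adjusted p = 0.0322), and in FL, F and L the differences of -0.43, -0.41 and -0.41 did not. FL arrays gave 4.17, 4.11, 3.83 and 3.77 at day 7, against 4.53, 4.31, 4.05 and 4.72 at day 0, F arrays 4.50, 4.17, 4.43 and 3.86 against 4.48, 4.55, 4.80 and 4.76, and L arrays 4.27, 4.17, 4.71 and 4.31 against 4.49, 5.31, 5.22 and 4.10. The days overlapped in these 3 strains. The LF call was lost in 10 of 56 alternatives. The call over 4 strains was lost without LF, where the difference was -0.42 (limma adjusted p = 0.165), and without the arrays numbered 2 (adjusted p = 0.1). At day 10 the Ugt8 difference was -0.25 (adjusted p = 0.344).

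At day 10 against day 0, 2 of 32 members passed beside 2.30% of all genes (1.24% higher and 1.06% lower), both as higher. Sult1a1, described above, was joined by Gstm3, a mu class GST of low signal, with a mean of 3.55 at day 10 and 3.30 at day 0. Its log2 difference was 0.25 ± 0.07 (SE; limma adjusted p = 0.0339), it was higher at 8 of 8 probe sets, and the call was lost in 20 of 57 alternatives. The members with the next smallest p at day 7 were Sult1c2a at -0.16 (limma adjusted p = 0.0552), Gstm1 at 0.35 (0.151) and Gstm3 at 0.16 (0.159), and at day 10 Gstm1 at 0.44 (0.101), Ugt1a5 at 0.36 (0.255) and Ephx2, the soluble epoxide hydrolase of epoxy fatty acids, at 0.24 (0.331). Sult1b1 differed by 0.11 at day 7 and by 0.15 at day 10 and did not pass. With the replicate number as a block 5 members passed at day 7 (Gstm1, Mgst1 and Sult1c2a besides Sult1a1 and Ugt8) and 4 at day 10 (Ephx2 and Gstm1 besides the pair above). The share of all genes past the test with the block is not given here, so whether this gain is particular to the members is not known.

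Between day 10 and day 7 limma passed 0 of 32 members (1 at an unadjusted p under 0.05), beside 0.0750% of all genes. The smallest p belonged to Ugt8 at 0.26 (adjusted p = 0.333), Ephx2 at 0.19 (0.390) and Ugt1a5 at 0.25 (0.415). Sult1a1 differed by -0.14 and Sult1b1 by 0.04.

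In 6 lists of genes around conjugation, 4 of 40 measured genes (10%) passed at day 7, beside the 4.98% of all genes given above. Of 10 measured genes of glutathione supply and use 3 passed at day 7: Gpx1, a glutathione peroxidase, rose by 0.17 on the log2 scale, Dpep1, the dipeptidase that trims glutathione conjugates, fell by 0.36, and Gpx3, the peroxidase the kidney secretes into plasma, fell by 0.19. Hnmt, which methylates histamine, fell by 0.41 and was the 1 of 6 other conjugating enzymes to pass. None of 4 genes of cofactor supply, 2 hydrolases of conjugates, 8 conjugate transporters or 10 receptors and factors passed at day 7, and no gene of these 6 lists passed at day 10.

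Markers of the kidney's cell types also moved over these arrays. Among all genes 3.88% passed as lower and 1.10% as higher at day 7, and 1.06% and 1.24% at day 10. At day 7, 2 of 6 proximal tubule markers fell (Lrp2 at -0.15 and Slc5a2 at -0.24), 3 of 5 for Henle's loop and the distal nephron (Calb1 at -0.90, Slc12a1 at -0.25 and Umod at -0.15), 2 of 4 of the collecting duct (Aqp2 at -0.49 and Scnn1g at -0.35), 1 of 2 of podocytes (Podxl at -0.21) and the 1 measured of macrophages (Adgre1 at -0.38). Tagln, the 1 measured marker of smooth muscle, rose by 0.43, and 1 of 2 red cell markers, Hba-a2, by 0.26. At day 10 Calb1 (-0.84), Aqp2 (-0.61) and Scnn1g (-0.33) were lower and Tagln (0.60) higher, and no other marker of these types passed. Neither hepatocyte marker passed at either day, and none of 3 endothelial markers was measured. The part of these markers in the Sult1a1, Ugt8 and Gstm3 differences was not tested.

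**Figure D3:**
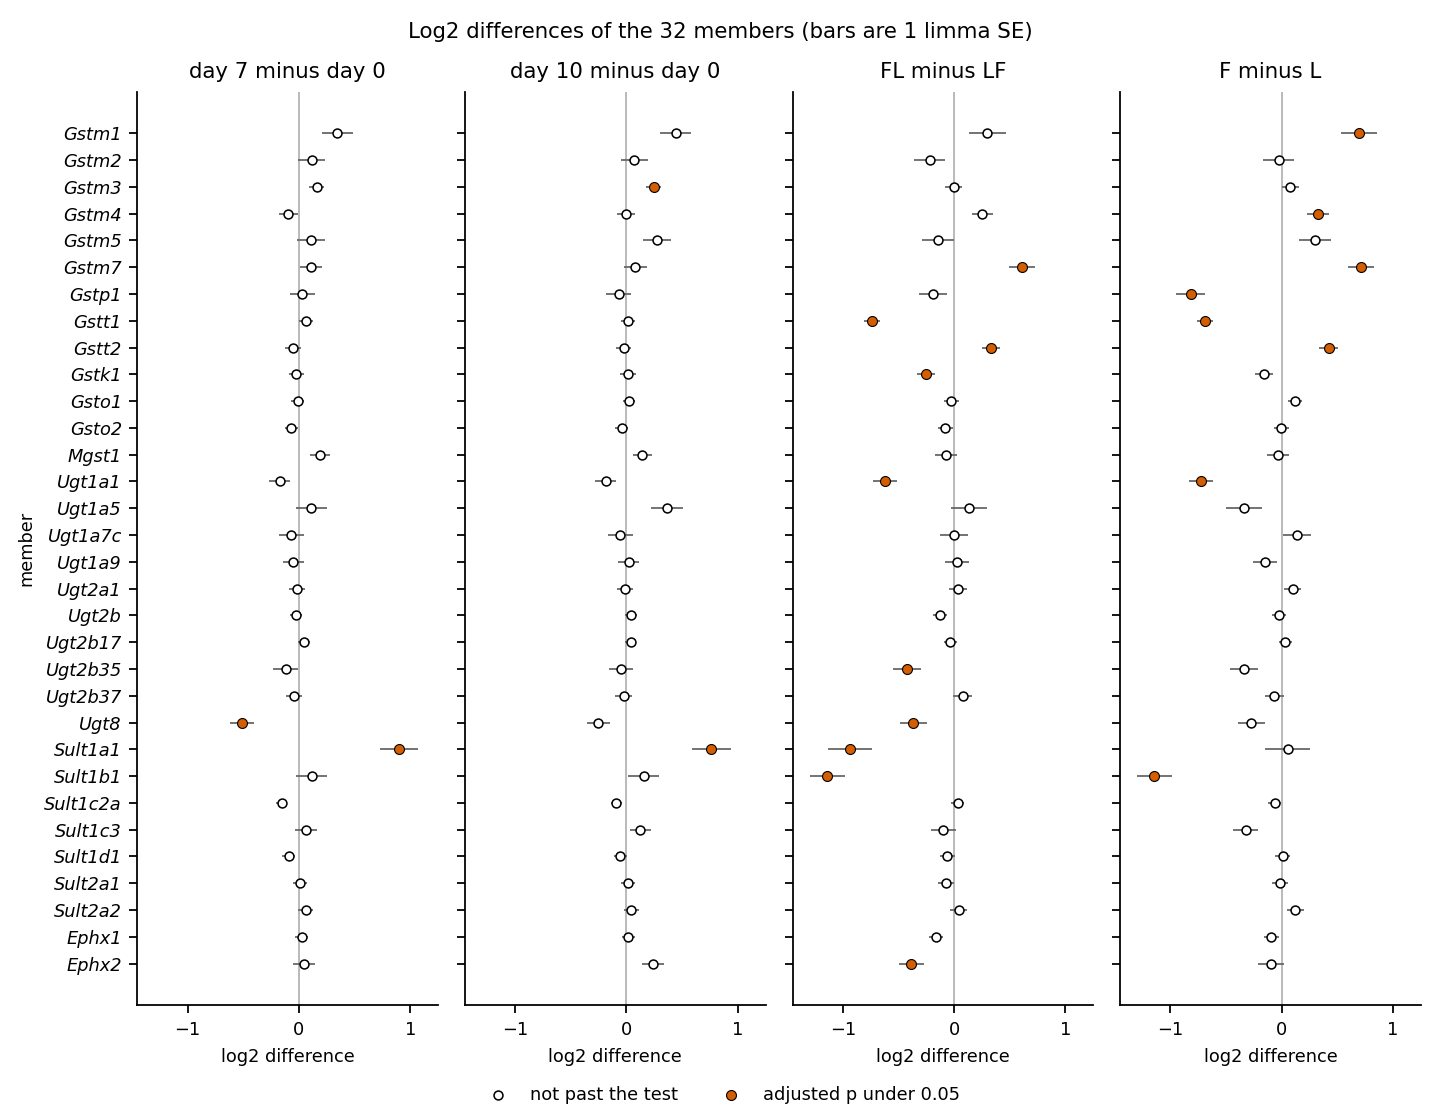
Log2 difference with its limma SE for each of the 32 members at day 7 minus day 0 and day 10 minus day 0 (means of 4 strains), and for FL minus LF and F minus L (means of 3 days). In the day panels Sult1a1 stands apart at 0.90 and 0.76, and in the strain panels Gstt1, Sult1b1 and Ugt1a1 lie below 0 and Gstm7 and Gstt2 above it.

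The second question is how the strains differ whatever the day. More members passed here than after the compound: 8 of 32 (25%) in F against L, beside 7.03% of all genes, with 4 higher in F, beside 2.49%, and 4 lower, beside 4.54%. Lower in F were Gstt1, Sult1b1, Ugt1a1 and Gstp1, and higher in F were Gstm7, Gstt2, Gstm1 and Gstm4. FL against LF, which shares no array with F against L, passed 10 of 32 members (31.2%), beside 10.8% of all genes, with 2 higher in FL, beside 2.59%, and 8 lower, beside 8.18%. The pairs had 5 members in common, Gstm7, Gstt1, Gstt2, Sult1b1 and Ugt1a1, and all 5 went the same way. They are 62.5% of the first list and 50% of the second. The overlap over all genes was not counted, so whether it is particular to these members is not known.

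**Figure D4:**
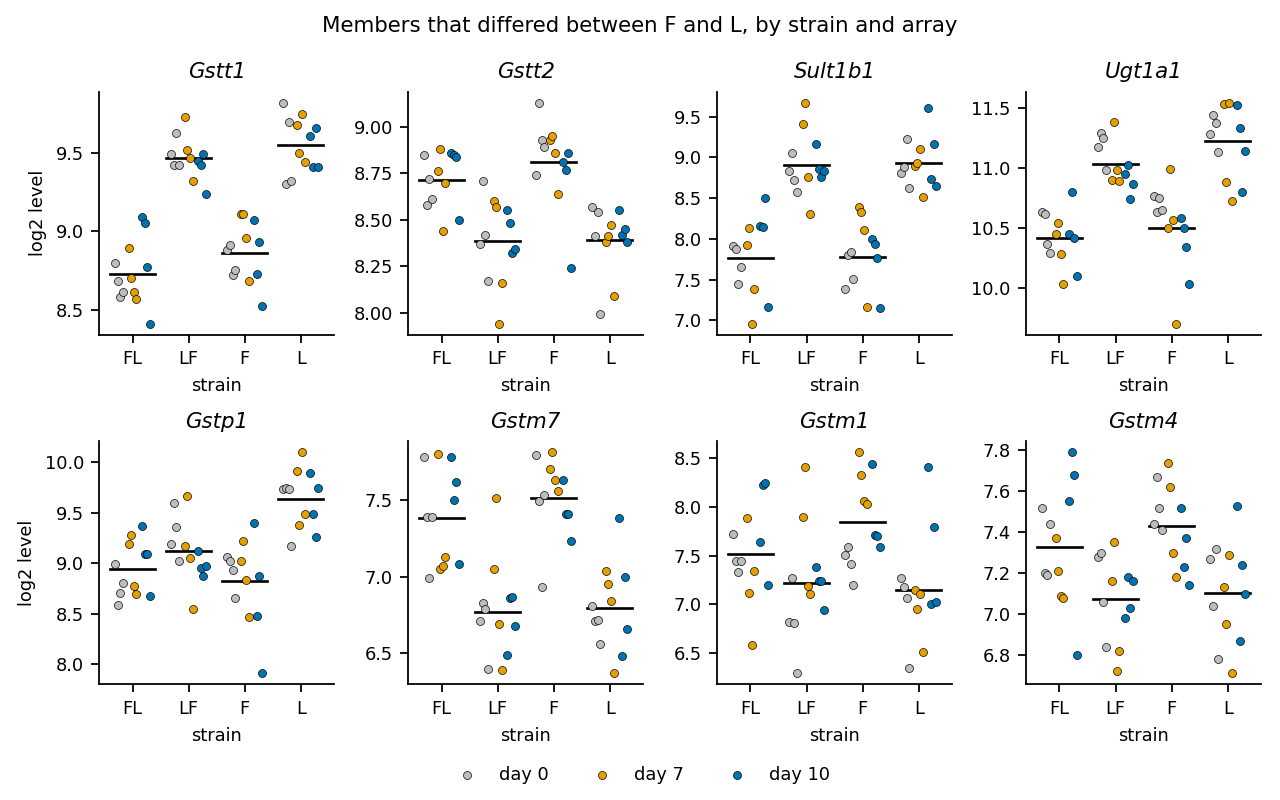
Log2 value in each of the 12 arrays of FL, LF, F and L for Gstt1, Gstt2, Sult1b1, Ugt1a1, Gstp1, Gstm7, Gstm1 and Gstm4, with points coloured by day and a line at the strain's mean. Gstt1 lies between 8.41 and 9.11 in all FL and F arrays and between 9.24 and 9.82 in all LF and L arrays.

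Gstt1 and Gstt2 are the theta class GSTs, known for conjugating small halogenated compounds and sulfate esters, and they differed in opposite directions. Gstt1 had a lowest, median and highest log2 value of 8.41, 8.69 and 9.09 over the 12 FL arrays, 9.24, 9.46 and 9.73 in LF, 8.52, 8.90 and 9.11 in F, and 9.30, 9.56 and 9.82 in L. Every FL and F array lay below every LF and L array. At day 0 alone its arrays gave 8.80, 8.68, 8.58 and 8.61 in FL and 9.49, 9.42, 9.63 and 9.42 in LF, and 8.88, 8.91, 8.72 and 8.75 in F and 9.82, 9.30, 9.70 and 9.32 in L. The split was present at day 0 in both pairs.

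Over all days Gstt1 averaged 8.86 in F and 9.55 in L, a difference of -0.69 ± 0.07 (SE), or 1.61-fold lower in F (limma adjusted p = 3.2e-09). In FL against LF it differed by -0.74 (adjusted p = 6.85e-10), with 8.73 in FL and 9.47 in LF. All 7 probe sets of Gstt1 were lower in F than in L. Gstt2 had 8.44, 8.74 and 8.88 as lowest, median and highest in FL, 7.94, 8.40 and 8.71 in LF, 8.24, 8.86 and 9.13 in F, and 7.99, 8.41 and 8.57 in L, so the strains overlapped. It averaged 8.81 in F and 8.39 in L, a difference of 0.42 ± 0.08 (SE; limma adjusted p = 0.000341), at 8 of 8 probe sets, and 0.33 in FL against LF (adjusted p = 0.00493). The theta genes lie on chromosome 20 in the GRCr8 annotation with 2 protein-coding genes between them.

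Sult1b1, a sulfotransferase of thyroid hormone and small phenols, showed the widest difference between strains of any member. Its lowest, median and highest log2 values were 6.96, 7.90 and 8.50 in FL, 8.31, 8.83 and 9.67 in LF, 7.15, 7.82 and 8.39 in F, and 8.51, 8.89 and 9.61 in L. F and L did not overlap, and FL overlapped with LF in its top arrays. At day 0 the 4 arrays gave 7.91, 7.88, 7.45 and 7.65 in FL, against 8.83, 9.05, 8.72 and 8.58 in LF. In F they gave 7.39, 7.80, 7.84 and 7.51, against 8.81, 8.88, 9.23 and 8.62 in L, with no overlap in either pair at that day. Sult1b1 averaged 7.78 in F and 8.93 in L over all days, a log2 difference of -1.15 ± 0.16 (SE), or 2.21-fold lower in F (limma adjusted p = 8.81e-07), at 10 of 10 probe sets. FL against LF gave -1.14 (adjusted p = 9.39e-07). Sult1b1 lies on chromosome 14 directly between Sult1d1 and Ugt2a1, neither of which passed in any strain pair. Both are among the dimmest genes, at mean levels of 2.66 and 2.26, where a difference could be missed.

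Ugt1a1 had lowest, median and highest values of 10.03, 10.43 and 10.8 in FL, 10.74, 10.98 and 11.38 in LF, 9.70, 10.57 and 10.99 in F, and 10.72, 11.3 and 11.54 in L. It averaged 10.50 in F and 11.22 in L, a log2 difference of -0.72 ± 0.11 (SE), or 1.65-fold lower in F (limma adjusted p = 5.21e-06), and -0.62 in FL against LF (adjusted p = 5.82e-05). The strains overlapped at their edges over all days, while at day 0 the FL arrays (10.63, 10.61, 10.36 and 10.29) lay below the LF arrays (11.17, 11.29, 11.25 and 10.98) and the F arrays (10.76, 10.63, 10.75 and 10.65) below the L arrays (11.28, 11.44, 11.37 and 11.13). This value rests on 1 probe set. The probe sets shared by 8 UGT1A symbols were also lower in F than in L (-0.47). Those pairing Ugt1a1 with Ugt1a2, Ugt1a3, Ugt1a7c or Ugt1a8 differed by 0.05 to 0.22, higher in F, and none passed. A further such set was lower in F and is not reported here. Whether the 1 probe set reads Ugt1a1 alone was not tested. Whether a base difference between the strains lies under its probes, or under those of any other member, was not tested either.

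Gstp1, the pi class GST, ran 8.59, 8.90 and 9.37 (lowest, median and highest) in FL, 8.55, 9.09 and 9.67 in LF, 7.91, 8.90 and 9.40 in F, and 9.17, 9.74 and 10.1 in L. L was the high strain here, although the ranges overlapped. It averaged 8.82 in F and 9.64 in L, a log2 difference of -0.82 ± 0.13 (SE), or 1.76-fold lower in F (limma adjusted p = 1.2e-05), at 9 of 9 probe sets. It was also lower in FL than in L by a difference of -0.70 (adjusted p = 0.000149). In LF against L it was the only one of 32 members to pass, beside 0.675% of all genes, at 9.13 in LF and 9.64 in L (-0.51 ± 0.13, limma adjusted p = 0.0405). The LF against L call was lost in 21 of 57 alternatives, which include leaving out the arrays of any 1 replicate number. There Sult1a1 differed by 0.42 and Sult1b1 by -0.02, and neither passed.

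The mu class GSTs, which take up a broad range of electrophiles, did not all differ between strains. In F against L, Gstm7 was higher by 0.72 ± 0.12 (7.51 in F, 6.79 in L, limma adjusted p = 2.33e-05), Gstm1 by 0.69 ± 0.16 (7.84 in F, 7.15 in L, adjusted p = 0.00394) and Gstm4 by 0.33 ± 0.10 (7.43 in F, 7.10 in L, adjusted p = 0.0277). Of their probe sets, 7 of 9 of Gstm7 (-0.45 to 1.46), 10 of 10 of Gstm1 and 9 of 10 of Gstm4 were higher in F. Gstm5 at 0.30, Gstm3 at 0.08 and Gstm2 at -0.03 did not pass. Gstm7 ran 6.99, 7.39 and 7.80 (lowest, median and highest) in FL, 6.39, 6.75 and 7.51 in LF, 6.93, 7.54 and 7.81 in F, and 6.37, 6.76 and 7.38 in L. Gstm1 ran 6.58, 7.44 and 8.25 in FL, 6.29, 7.22 and 8.41 in LF, 7.20, 7.70 and 8.56 in F, and 6.34, 7.08 and 8.41 in L. Gstm4 ran 6.80, 7.29 and 7.79 in FL, 6.72, 7.11 and 7.35 in LF, 7.14, 7.43 and 7.74 in F, and 6.71, 7.12 and 7.53 in L. All 3 genes overlapped between the strains, Gstm1 most widely. The 6 mu genes lie together on chromosome 2, with Gstm2, Gstm1 and Gstm4 next to one another. The Gstm4 call was lost in 9 of 57 alternatives, and the other 7 of the 8 calls in F against L were kept in all 57.

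The promoters of Sult1b1, Ugt1a1, Gstp1 and Gstm7 are printed as examples of the SULT, UGT and GST families. These 4 genes passed in F against L and, unlike Gstt1 and Gstt2, had an entry in the RefSeq table, as 26 of the 32 members did. Gstp1 did not pass in FL against LF. Each line holds the 250 bases before the start on GRCr8, 5′ to 3′ on the gene's strand, with capitals at a match to one of the 3 motifs named above. Sult1b1 (chr14:20771667-20771916, plus strand) held no match. Ugt1a1 (chr9:96248893-96249142, plus strand) held GTTAAT on the reverse strand, printed as ATTAAC, 63 to 58 bases before the start. Gstp1 (chr1:210769706-210769955, minus strand) held GCGTG on the reverse strand, printed as CACGC, 238 to 234 bases before the start, and TGACTCAGC 61 to 53 bases before it. Gstm7 (chr2:198260320-198260569, minus strand) held TGACACAGC 14 to 6 bases before the start. GCGTG occurred in 5 of 26 member promoters (19.2%), TGACNNNGC in 4 (15.4%) and GTTAAT in 2 (7.7%), beside the shares of all promoters given above.
Sult1b1: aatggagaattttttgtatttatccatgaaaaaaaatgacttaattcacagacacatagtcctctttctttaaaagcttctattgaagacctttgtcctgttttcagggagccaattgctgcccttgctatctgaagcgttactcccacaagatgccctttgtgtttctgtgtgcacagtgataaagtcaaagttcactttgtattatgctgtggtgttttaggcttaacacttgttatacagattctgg
Ugt1a1: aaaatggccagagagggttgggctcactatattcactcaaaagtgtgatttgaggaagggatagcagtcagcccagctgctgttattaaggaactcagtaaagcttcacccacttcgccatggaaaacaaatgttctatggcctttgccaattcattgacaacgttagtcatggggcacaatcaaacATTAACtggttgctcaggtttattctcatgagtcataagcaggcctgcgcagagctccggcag
Gstp1: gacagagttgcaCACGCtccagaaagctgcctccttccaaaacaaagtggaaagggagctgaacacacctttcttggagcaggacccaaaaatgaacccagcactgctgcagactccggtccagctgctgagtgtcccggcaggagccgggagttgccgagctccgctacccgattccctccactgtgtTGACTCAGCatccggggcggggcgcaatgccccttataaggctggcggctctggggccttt
Gstm7: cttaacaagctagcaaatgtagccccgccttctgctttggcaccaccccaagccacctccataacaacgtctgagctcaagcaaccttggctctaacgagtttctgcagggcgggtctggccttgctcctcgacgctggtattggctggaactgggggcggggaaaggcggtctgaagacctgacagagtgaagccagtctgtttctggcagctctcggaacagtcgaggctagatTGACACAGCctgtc

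FL against LF added 5 members that F against L did not pass. Sult1a1 averaged 7.89 in FL and 8.82 in LF over all days, a log2 difference of -0.94 ± 0.20 (SE), or 1.91-fold lower in FL (limma adjusted p = 0.00105), and this call was kept in all 57 alternatives. It ran 7.25, 7.89 and 8.62 (lowest, median and highest) over the 12 FL arrays, against 7.97, 8.66 and 10.6 over the 12 LF arrays, with overlap. At day 0 alone the Sult1a1 difference was -0.47 and did not pass (adjusted p = 0.554). The other 4 were lower in FL: Ephx2 by a difference of -0.38 (adjusted p = 0.023), Ugt2b35 by -0.42 (0.0246), Gstk1, the kappa class GST of mitochondria and peroxisomes, by -0.25 (0.0312) and Ugt8 by -0.37 (0.0464). Those calls were lost in 8 (Ephx2), 8 (Ugt2b35) and 12 (Gstk1) of 57 alternatives, and Ugt8 in 22 of 56. Ephx2 ran 7.41, 8.04 and 8.50 (lowest, median and highest) in FL, 7.91, 8.46 and 8.79 in LF, 7.96, 8.30 and 8.90 in F, and 7.86, 8.41 and 8.89 in L. Ugt2b35 ran 7.96, 8.36 and 8.66 in FL, 8.25, 8.77 and 9.27 in LF, 7.88, 8.50 and 8.99 in F, and 8.47, 8.83 and 9.68 in L. Gstk1 ran 8.20, 8.57 and 8.98 in FL, 8.50, 8.88 and 9.02 in LF, 8.25, 8.72 and 8.91 in F, and 8.58, 8.82 and 9.18 in L. All 3 genes overlapped between strains, and the lowest array of Ephx2 was an FL array.

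The pairs FL against L and LF against F share arrays with the pairs above. FL against L passed 11 of 32 members (34.4%), beside 10.3% of all genes, with 9 lower in FL, beside 8.37%, and 2 higher, beside 1.96%. They were Gstt1 (-0.82, limma adjusted p = 3.24e-11), Ugt1a1 (-0.81), Sult1b1 (-1.16), Gstp1 (-0.70), Ugt2b35 (-0.54), Ephx2 (-0.44), Ephx1 (-0.24), Ugt8 (-0.44) and Gstk1 (-0.27) as lower, and Gstm7 (0.59) and Gstt2 (0.33) as higher. Without the arrays numbered 3 the count was 6, with Ephx1, Ephx2, Gstk1, Ugt2b35 and Ugt8 lost. Sult1a1 differed by -0.51 there (adjusted p = 0.0965). LF against F passed 7 of 32 members (21.9%), beside 7.09% of all genes. Gstt1 (0.60), Sult1b1 (1.13) and Ugt1a1 (0.53) were the 3 higher in LF, beside 4.26%, and Gstm7 (-0.74), Gstt2 (-0.43), Gstm1 (-0.63) and Gstm4 (-0.36) the 4 lower, beside 2.83%. Sult1a1 differed by 0.37 there (adjusted p = 0.35).

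No member separated FL from F. With limma, the test passed 0 of 32 members in FL against F (6 at an unadjusted p under 0.05), beside 0.350% of all genes. The smallest p belonged to Ephx2 at -0.34 (adjusted p = 0.26), Sult1a1 at -0.56 ± 0.20 (SE; adjusted p = 0.327), lower at 11 of 11 probe sets, and Gstm5 at -0.38 (adjusted p = 0.408), and Sult1b1 differed by -0.01. With the replicate number as a block 1 member, Ephx2, passed, and the share of all genes with the block is not given here. A p that misses the threshold does not show that the strains had the same level.

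At day 0, before the compound, the split of the strains was present for the leading members. F against L passed 3 of 32 (9.38%), beside 1.35% of all genes: Gstt1 (-0.72, limma adjusted p = 0.00042), Sult1b1 (-1.25 ± 0.27, adjusted p = 0.00615) and Gstt2 (0.54, adjusted p = 0.0352), while Gstm7 at 0.73 (0.057), Ugt1a1 at -0.61 (0.122) and Gstp1 at -0.68 (0.162) did not pass. With the replicate number as a block 6 members passed there, and the share of all genes with the block is not given here. FL against LF passed 4 (12.5%), beside 2.53%: Gstt1, Sult1b1 and Ugt1a1 as lower in FL (-0.82, -1.07 and -0.70) and Gstm7 as higher (0.70). FL against L passed 4, beside 1.41%: Gstt1 (-0.87), Ugt1a1 (-0.83), Sult1b1 (-1.16) and Gstp1 (-0.82). LF against F passed 3, beside 1.81%: Gstt1 (0.67), Sult1b1 (1.16) and Gstm7 (-0.75). FL against F and LF against L each passed 0 of 32 by limma (1 and 0 at an unadjusted p under 0.05), beside 0.0750% and 0.250% of all genes. Several of these day 0 calls were lost in many of their 57 alternatives: Gstm7 in FL against LF in 35, Gstp1 in FL against L in 25, Gstm7 in LF against F in 13 and Gstt2 in F against L in 11. Gstt1 was lost in 0 or 1 in each of the 4 pairs, and Sult1b1 and Ugt1a1 in 3 to 8. Sult1a1 passed in no strain pair at day 0, with differences of -0.47 to 0.47.

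Whether a probe set departs from the rest of its gene was tested with diffSplice of limma for the 30 members with more than 1 probe set. In F against L this passed for 2 of 30 members (6.67%), beside 7.12% of the genes tested, so the members' share was near that of all genes. Gstm7 (limma adjusted p = 5.47e-08) had probe set differences of -0.45 to 1.46, 7 of 9 of them above 0, and Sult1c2a (adjusted p = 7.51e-05) had 1 probe set at -0.64 and the others between -0.11 and 0.05. At day 7 against day 0 it passed for 2 of 30, below the 11.8% of all genes: Gstt2 (adjusted p = 6.05e-07), whose dimmest probe set at a level of 3.46 differed by -0.99 and the others by -0.17 to 0.10, and Sult1c2a (adjusted p = 0.00641), with 6 of 6 probe sets lower by 0.11 to 0.56. No member passed at day 10 against day 0 (beside 1.12%), in FL against F (1.26%) or in LF against L (1.04%). Sult1a1, with 11 of 11 probe sets higher at day 7, and Gstt1, with 7 of 7 lower in F, did not pass.

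**Figure D5:**
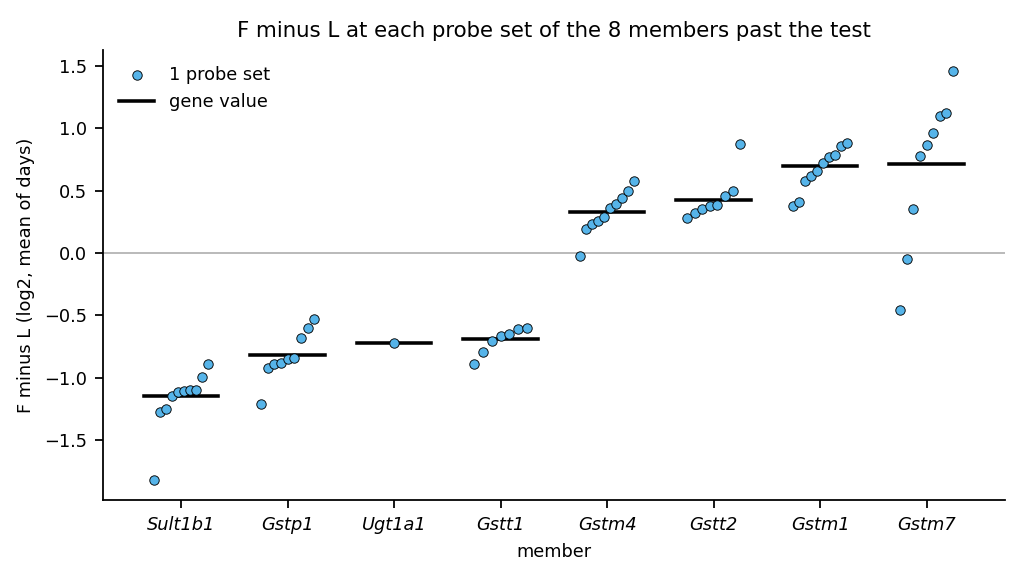
Log2 difference F minus L, as a mean of 3 days, at each probe set of the 8 members past the test in that pair. All probe sets of Gstt1, Sult1b1 and Gstp1 lie below 0, those of Gstt2 and Gstm1 above 0, and those of Gstm7 spread from -0.45 to 1.46.

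Of the 40 measured genes in the 6 lists around the conjugating enzymes, 6 (15%) passed in F against L, beside 7.03% of all genes. Lower in F were Gss, the glutathione synthetase, with a log2 difference of -0.28 as 1 of 10 genes of glutathione supply, Slc26a1, a sulfate transporter, with -0.27 as 1 of 4 genes of cofactor supply, and Slc22a6, the organic anion transporter OAT1, with -0.17 as 1 of 8 conjugate transporters. Nfe2l2, which encodes NRF2, at -0.26 and Hnf4a, a factor of proximal tubule and liver, at -0.17 were 2 of 10 receptors and factors. Gnmt, the glycine methyltransferase, was higher in F by 0.46 as 1 of 6 other conjugating enzymes. Of proximal tubule markers Cubn (0.32) and Slc5a2 (0.29) were higher in F and Slc22a6 lower, and of the macrophage markers the 1 measured, Adgre1, was lower in F by a difference of -0.46. Aqp3 (-0.29) was the 1 of 4 collecting duct markers to pass, and no marker of the loop of Henle or the distal nephron, podocytes, smooth muscle, red cells or hepatocytes did. The part of these markers in the member differences was not tested. Of the 3 injury markers, Havcr1 was higher in F than in L by 1.01, Lcn2 (lipocalin 2) was lower by a difference of -1.33, and Clu did not pass. Of the 4 genes of exposure and oxidative stress, Cyp1a1 (1.23) and Hmox1 (1.70) were higher in F, and the other 2 did not pass. These marker counts stand beside 2.49% of all genes higher in F and 4.54% lower.

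Over the 31 comparisons 15 members passed in at least 1 and 17 in none. Those that passed in none include both omega class GSTs, Mgst1, which protects membranes from lipid peroxides, both SULT2 genes, which conjugate steroids and bile acids, and the UGT1A genes apart from Ugt1a1.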

How the data were processed

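The deposited table gives a log2 intensity for every probe set on each array. The authors made it with RMA, per the submitters' processing notes, which also name limma. Those notes state no version, detection filter or annotation. The table held 92401 probe sets on 48 arrays with 0 missing values, and array precision is limited by 4 arrays in a group.

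The platform annotation gave each probe set its gene, with symbols updated through RefSeq's GRCr8 genes (of 8016 symbols, 6113 were current, 1876 updated and 27 kept). Ugt2b35 is Ugt2b36 on the platform. Those with several symbols (1803) or none (5192) stayed out of the gene tests. A gene value is the Tukey median polish of its probe sets' log2 values. limma (version 3.58.1, R 4.3.3, with data.table of version 1.17.8) fitted 1 mean for each of the 12 groups with eBayes, and p-values were adjusted by Benjamini-Hochberg over 7997 genes within each of 31 comparisons. Probe set use was tested with diffSplice (Simes). Errors are limma SEs. The fit was tested on simulated data before use. Figures and counts were made in Python 3.11.15 with pandas 2.3.3 and matplotlib 3.10.9.

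The text names every member past the test in a comparison, up to 3 others with the smallest adjusted p, Sult1a1 and Sult1b1 throughout, the 3 highest and 3 lowest levels, and up to 3 genes past the test from each other list. Gene and marker lists, like the members, were chosen with earlier results of these data known. Members whose probe sets departed from their gene were named after their values were seen.

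Alternatives were the replicate number as a block, quantile normalization, the mean of probe sets, leaving out genes in the lowest tertile of level, the compared groups alone, no LF, and leaving out each replicate number and each array in turn. Replicate numbers come from the array titles, and the start of an array's name in the labels is shared by arrays of 1 number. The labels do not say what that start marks, and the block stands for either. After group means were removed, 264 pairs of same-numbered arrays had a mean correlation of 0.0948 (112 pairs exceeded 0.1), and 792 pairs with unlike numbers had -0.0316.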

Additional observations from a re-analysis of the deposited data

Results flagged for a closer look

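Among the 13 members that passed in 2 or more comparisons, 156 groups of 4 arrays were examined for an array far from its group, and 7 held one. Chance gives about 1 such array in 20 groups, so 7 in 156 groups is no more than chance gives. The groups of different members also share arrays and are not independent.

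Sult1a1 stood at 7.20 in F at day 0 replicate 1, against 7.71 to 7.78 in the other 3 arrays of that group. Gstt2 stood at 8.50 in FL at day 10 replicate 4, against 8.84 to 8.86 in the others, and at 8.24 in F at day 10 replicate 4, against 8.77 to 8.86. Gstm7 stood at 7.80 in FL at day 7 replicate 1, against 7.05 to 7.13, and Gstm1 at 8.44 in F at day 10 replicate 1, against 7.59 to 7.71. In L at day 0 replicate 4, both Gstp1, at 9.17 against 9.74 to 9.75, and Ephx2, at 7.86 against 8.38 to 8.44, were low. All 7 are log2 values, 3 of them high or low in arrays of replicate 1 and 4 low in arrays of replicate 4. These replicate 4 arrays also had the lowest array median of their group, at 6.03 in FL at day 10, 6.06 in F at day 10 and 6.18 in L at day 0. The part of these low medians in the flags was not tested.

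Probe sets that the platform assigns to both Sult1c2 and Sult1c2a lie outside the members' values. Their summary over 6 probe sets averaged 11.30 at day 7 and 11.50 at day 0, a log2 difference of -0.20 ± 0.05 (SE; limma adjusted p = 0.0144 over 8011 rows, of which 4.98% passed). Sult1c2a on its own probe sets differed by -0.16 and did not pass.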

How the results depend on the processing

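No call on a member in the main fit changed direction in any alternative. Apart from Sult1a1 and Sult1b1, members called only in an alternative were not compared in direction. Changes of sign in differences that did not pass the test were not counted. Of the calls over all days, 7 of 8 in F against L, 5 of 11 in FL against L, 5 of 7 in LF against F and 5 of 10 in FL against LF were kept in every alternative. With the replicate number as a block the count of members past the test was 5 at day 7 and 4 at day 10 (means of strains), 1 in FL against F and 6 in F against L at day 0. With quantile normalization those counts were 6, 4, 1 and 7, and LF against F at day 0 gave 5. The mean of probe sets gave 1 at day 10 and 1 in LF at day 7, as did leaving out the genes in the lowest tertile of level. Fitting the compared groups alone gave 1 at day 10, 2 in F at day 7, 0 in LF at day 7 and 1 in LF at day 10. Without LF the counts were 1 at day 7 and 1 at day 10. For probe set use, the block gave 5 members at day 7 and 2 in FL against F, and quantile normalization 4 and 3. Leaving out a replicate number or an array gave 0 to 3 members at day 7, 0 to 3 at day 10, 0 to 1 in F at day 7, 0 to 2 in LF at day 7, 0 to 1 in LF against L, 6 to 12 in FL against L and 5 to 11 in FL against LF. At day 0 it gave 0 to 4 in F against L, 1 to 5 in FL against L, 0 to 4 in LF against F and 1 to 4 in FL against LF. Without the arrays numbered 3, FL against LF passed 5 members. LF against F passed 5 without those numbered 1 or 3, with Gstm1 and Gstm4 lost. The shares of all genes past the test in these alternatives are not given here. Whether a change in a count is particular to the members is therefore not known. The cause of these changes was not tested, except that leaving out arrays or groups leaves fewer samples. Dim members such as Ugt8 and Gstm3 lie near the low end of the signal, where an array measures differences least well.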

Other observations

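Of the probe sets with several symbols, 86 carried a symbol of these families, and they were summarised by shared set after the files had been seen. The UGT1A locus joins several first exons to shared later exons, and 7 probe sets are assigned to 8 UGT1A symbols at once. Their summary averaged 10.81 in F and 11.29 in L over all days, a log2 difference of -0.47 ± 0.08 (SE; limma adjusted p = 4.13e-05), beside 7.03% of 8011 rows past the test. In FL against LF it differed by -0.30 (adjusted p = 0.0105). These probe sets do not overlap with the 1 probe set behind Ugt1a1, which was lower in F by a difference of -0.72. No set that pairs Ugt1a1 with 1 other symbol passed in F against L. Those with Ugt1a7c, Ugt1a8, Ugt1a3 and Ugt1a2 were higher in F, by 0.22, 0.19, 0.11 and 0.05. A further such set was lower in F and is not reported here. Whether the 1 probe set reads Ugt1a1 alone was not tested. At day 7 against day 0 the set of 8 UGT1A symbols differed by 0.01 (adjusted p = 0.949). In FL against LF 6 of the 14 shared sets passed, beside 10.9% of the rows tested, 3 of them as higher in FL. Those 3 were the sets of Sult1c2 and its close copies, with differences of 0.26, 0.25 and 0.21 (limma adjusted p = 0.0252, 0.00954 and 0.0124), and 1 further set that passed as lower is not reported here. The 14 probe sets assigned to both Ugt2b37 and Ugt2b5, in the UGT2B family that conjugates steroids, differed by -0.31 in FL against LF (adjusted p = 0.0306).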
